A study of Mus musculus with 61 samples.

Results

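Nicotinamide was set against plain water in sorted retinal cells of 9-month DBA/2J mice, with 7 nicotinamide libraries and 25 water libraries chosen by their column names out of 61 libraries in the series. DBA/2J is an inbred strain that develops an inherited glaucoma, and the cells were taken before it showed in the optic nerve: every eye used had been scored free of axon degeneration. The nicotinamide mice were DBA/2J, 9 months old and treated with 500 mg/kg/day. The water mice were DBA/2J, 9 months old and labelled as water control. Another 29 libraries hold 4-month DBA/2J mice (10) and D2-Gpnmb+ mice, a DBA/2J strain with a functional Gpnmb gene that serves as the strain control, at 4 (10) and 9 months (9), all on water. The labels give neither the age at which nicotinamide was started nor sex by library, and do not tell which libraries, if any, share an animal. The p-values below therefore describe spread among libraries, which may be technical.

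Nicotinamide is a form of vitamin B3. Cells turn it into nicotinamide mononucleotide with Nampt and then into NAD with the Nmnat enzymes, and NAD carries electrons for energy metabolism and is consumed by sirtuins, Parp enzymes and Sarm1. Retinal ganglion cells send their axons through the optic nerve to the brain, and they are the cells lost in glaucoma.

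Each value below is a deposited normalized read count, scaled by the authors for library size, which compares one gene across libraries and not different genes with each other. The nicotinamide libraries held 9136453 to 12218457 reads (median 11703006) and the water libraries 5133114 to 19501444 (median 10429091). Cells had been sorted as Thy1.2-positive and negative for Cd11b, Cd11c, Cd34, Cd45.2 and GFAP, gates meant to remove immune cells, vessel cells and astrocytes. Sag, the arrestin of rod photoreceptors, was at 537 to 915 in nicotinamide libraries and 184 to 2403 in water libraries. Pou4f1, a ganglion cell transcription factor, was at 0 to 1.73 and 0 to 1.76, and the ganglion cell marker Rbpms at 6.21 to 12.6 and 0.86 to 23.9. The material is therefore called sorted retinal cells here. In such bulk samples, fewer cells of a type and less RNA per cell cannot be told apart.

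All 7 nicotinamide columns lie in 1 stretch of the deposited table, together with only 3 of the water libraries (26, 27 and 28), while 6 water libraries lie in a first stretch and 16 in a second. What the stretches stand for is not given in the labels. Against the other 22 water libraries, treatment and stretch cannot be told apart. Results are given against all 25 water libraries (below, the full comparison). List results and many of the single genes are also given against the 3 of the same stretch (the stretch comparison). Where a gene has only the full comparison, its stretch difference is not reported and may differ in size or sign. The 3 were also set against the other 22, a difference that holds no treatment. These 3 comparisons share libraries and are given side by side. Water library 26 had the fewest reads of all water libraries and a summed Müller glia marker level of 406, against 1604 and 1607 in water 27 and 28. Several results of the stretch comparison are therefore also given without it.

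Against all water, genes of inhibitory neurons of the inner retina were among the largest increases. Gad2 and Gad1, which make the transmitter GABA, rose with the transcription factors Tfap2b and Tfap2a, and immune cell genes such as Ctss and Lyz2 were among the largest decreases. In all, 2105 of 13925 genes passed an adjusted p of 0.05 (15.1%; limma with Benjamini-Hochberg adjustment), of which 1362 were higher (9.78%) and 743 lower (5.34%) with nicotinamide. The count was 1299 without nicotinamide library 3 and 1308 without library 7. With column stretch as a term in the fit, limma called 0 genes, with 736 at an unadjusted p under 0.05. On reads scaled to the total of each library, 1266 genes were higher and 348 lower, edgeR put the split at 1031 higher and 1244 lower, and DESeq2 at 1186 and 1752.

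In the stretch comparison, limma called 1 gene, Arap2, higher with nicotinamide (0.00718% of 13925 genes), and 2296 had an unadjusted p under 0.05 (16.5%). When all 33 libraries of the stretch shared 1 estimate of the spread, the same contrast called 110 genes (0.79%), 68 higher (0.488%) and 42 lower (0.302%). That count was 0 without water 26, 393 without water 27 and 46 without water 28, so it turns on which of the 3 water libraries are present. The same 3 libraries against the other 22 water libraries, with no treatment between them, gave 753 calls (5.41%), 348 higher (2.5%) and 405 lower (2.91%). That count was 6 without water 26.

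Amacrine cells are inhibitory interneurons of the inner retina, and their markers were higher with nicotinamide against all water in 11 of 14 tested genes, with none lower, beside the 9.78% of all genes called higher. Gad2, glutamate decarboxylase, had 128, 203, 299.9, 257, 203, 403 and 50.7 in nicotinamide libraries 1, 2, 3, 4, 5, 7 and 8, against 40.1, 104 and 29.2 in water 26, 27 and 28 and a lowest, median and highest value of 0.129, 7.91 and 199.6 in the other 22 water libraries. Apart from library 8, which lay among them, every nicotinamide value was above all 3 of the stretch. The log2 difference was 3.62 ± 0.76 (SE; adjusted p 0.00164) against all water and 1.90 ± 0.58 (adjusted p 0.162) in the stretch. Tfap2b, a transcription factor of amacrine and horizontal cells, had 108, 179.7, 227, 168, 135, 306.2 and 53.8 with nicotinamide, against 37.6, 106 and 43.5 in the stretch and 0, 11.1 and 82.8 in the other water libraries. It rose by 3.50 ± 0.59 in log2 against all water (adjusted p 0.000274), and its difference in the stretch was 1.4 (adjusted p 0.203). Between water 26 to 28 and the other water libraries, with no treatment, Tfap2b differed by 2.39 (adjusted p 0.0751) and Gad2 by 1.95 (adjusted p 0.337).

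Pax6, a transcription factor of amacrine and ganglion cells, stood -0.31 in the 3 water libraries of the stretch relative to the other 22 (adjusted p 0.71). Pax6 had 73.3, 97.9, 137, 141, 106, 199 and 51.9 in the nicotinamide libraries, against 22.9, 62.5 and 27.6 in water 26 to 28 and 14.04, 46.7 and 92.1 in the other 22. Its log2 difference was 1.34 ± 0.28 against all water (adjusted p 0.00134) and 1.61 ± 0.40 in the stretch (adjusted p 0.114). In the fit of all 33 libraries of the stretch, 2 amacrine markers were called, among them Pax6 (adjusted p 0.0364). Without water 26 its adjusted p was 0.404. Over the 14 genes the median log2 difference was 2.13 against all water, 1.28 in the stretch (1.08 without water 26) and 1.09 between the stretch's water and the other water, beside -0.025, 0.01 (0.019 without water 26) and -0.012 over all genes.

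Among the nicotinamide libraries the same 2 held the extremes for most amacrine genes. Nicotinamide library 7 was the highest of the 7 for 11 of the 14 genes and library 8 the lowest for 12. The summed level of the list ran from 528 to 1764 in nicotinamide libraries (median 990.2), 353 to 730 in the 3 water libraries and 247 to 1013 in the other 22. Atp1b1, a sodium pump subunit, had 60.4, 124, 133, 120.1, 88.8, 212 and 32.7 with nicotinamide, against 23.3, 43.99 and 20.7 in water 26 to 28 and 1.71, 8.89 and 84.1 in the other 22, and rose by 3.19 ± 0.52 (adjusted p 0.000188) against all water. Necab1, a neuronal calcium-binding protein, rose by 2.94 ± 0.57 (adjusted p 0.000908) and Kcnip1, a potassium channel partner, by 2.83 ± 0.51 (adjusted p 0.000399). Library 7 was highest and library 8 lowest of the 7 for all 3 of these genes. Kcna4, a potassium channel, and Slc8a1, a sodium-calcium exchanger, rose by 2.85 and 2.85 against all water (adjusted p 0.000957 and 0.00154). Their water of the stretch was higher than the other water by 2.75 and 3.12 (adjusted p 0.0204 and 0.0113). In the stretch they differed by 0.43 and 0.10 (adjusted p 0.619 and 0.935). For Atp1b1, Necab1 and Kcnip1 these 2 differences are not given here. The Atp1b1 values of water 26 to 28 all lay above the median of the other 22.

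**Figure D1:**
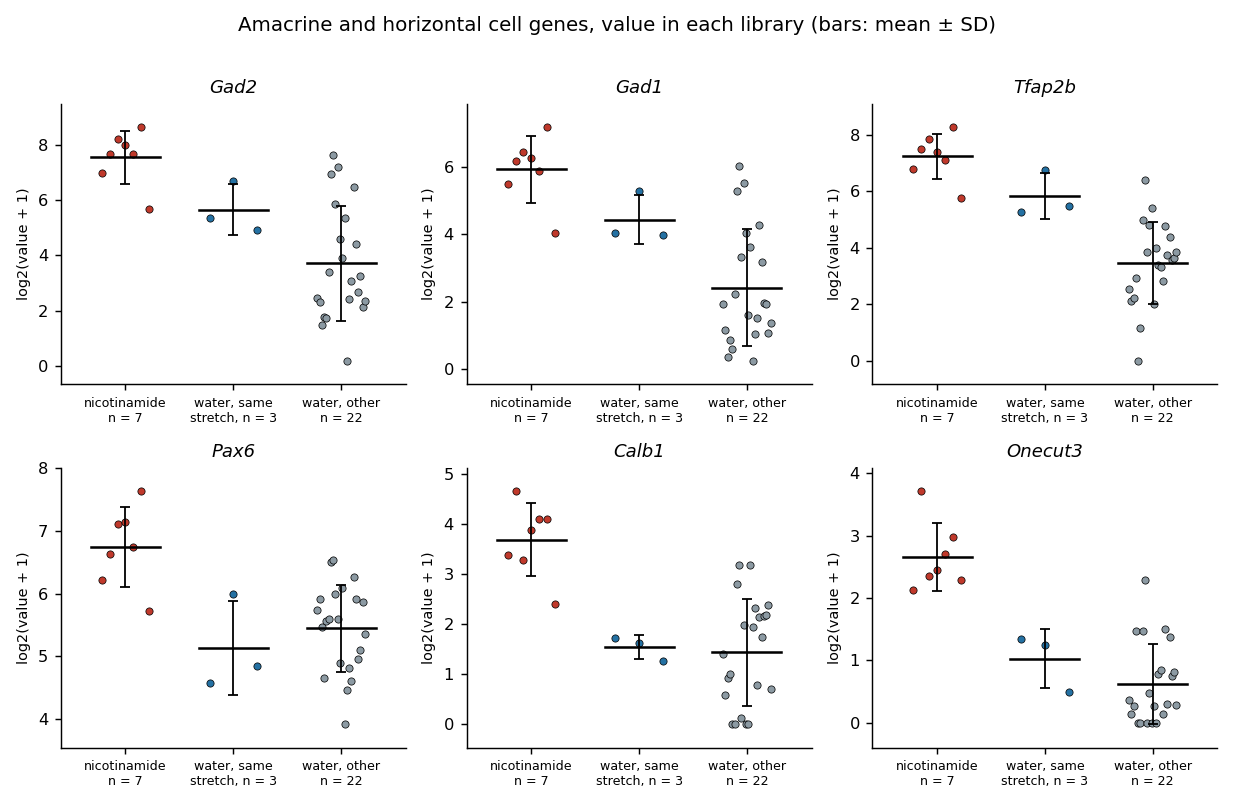
Deposited values of 6 amacrine and horizontal cell genes as log2(value + 1), 1 dot per library, for nicotinamide (7), the 3 water libraries of the same stretch and the other 22 water libraries, with mean and SD. The 7 nicotinamide dots lie above all 3 water dots of the stretch for Calb1 and Onecut3, while for Gad2, Gad1, Tfap2b and Pax6 1 nicotinamide library, library 8, lies among them.

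Horizontal cells are the inhibitory neurons that contact photoreceptors, and 5 of their 8 listed markers were tested. In the stretch 3 of the 5 had a positive difference, and 2 of these separated without overlap. Calb1, a calcium buffer that marks them, had 9.42, 24.4, 8.73, 13.9, 16.2, 16.3 and 4.33 with nicotinamide, against 2.33, 2.11 and 1.42 in water 26 to 28 and 0, 2.01 and 8.16 in the other 22. Every nicotinamide value was above the 3 of the stretch, and the log2 difference was 2.24 ± 0.39 against all water (adjusted p 0.000277) and 2.15 ± 0.38 in the stretch (adjusted p 0.0624). Onecut3, a transcription factor of these cells, had 3.39, 12.2, 4.105, 4.49, 5.51, 6.85 and 3.9 with nicotinamide, against 1.55, 1.37 and 0.405 in water 26 to 28 and 0, 0.257 and 3.88 in the other 22, again without overlap in the stretch. It rose by 2.0 ± 0.26 against all water (adjusted p 1.89e-05) and stood 1.63 ± 0.32 higher in the stretch (adjusted p 0.0674). The stretch's water differed from the other water by 0.11 for Calb1 (adjusted p 0.944) and 0.41 for Onecut3 (adjusted p 0.586). In all, 398 genes were higher in every nicotinamide library than in the 3 of the stretch (2.86% of genes) and 248 lower (1.78%). Of 5 tested horizontal cell genes, 4 rose against all water, among them Tfap2b of the amacrine list, beside 9.78% of all genes called higher. The exception was Prox1, at 807 to 1478 with nicotinamide and 634 to 2238 with water. Onecut2, a relative of Onecut3, rose against all water (log2 1.38, adjusted p 0.0385) and stood at -0.56 in the stretch (adjusted p 0.657), with nicotinamide library 2 and water 26 highest in their groups at 65.98 and 63.02. Without library 2 the difference against all water was 1.09 (adjusted p 0.129).

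Cone photoreceptor genes were higher with nicotinamide against all water in 8 of 11, with none lower, beside 9.78% higher over all genes. The count was 5 without nicotinamide library 1, 3, 4, 5 or 7. Gnat2, the cone transducin, had 602, 331, 534, 622, 697, 577 and 429 with nicotinamide, against 166, 481.4 and 391 in water 26 to 28 and 46.9, 177 and 344 in the other 22. Library 2 was the exception among the 7, which otherwise exceeded the highest of those 22. The log2 difference was 1.62 ± 0.33 (adjusted p 0.00116) against all water and 0.74 ± 0.31 in the stretch (adjusted p 0.263), or 0.28 without water 26. The opsins Opn1mw (1.45, adjusted p 0.00954) and Opn1sw (0.99, adjusted p 0.0135) also rose against all water. In the stretch 0 of 11 passed with limma, and their median difference was 0.35 (0.25 without water 26). Among the 11, Gnb3, which cones share with bipolar cells, had a negative difference in both (-0.25 and -0.37, adjusted p 0.339 and 0.244).

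The median difference of rod genes had opposite signs in the 2 comparisons. With limma 0 of 18 passed in either. Against all water their median difference was -0.25, while in the stretch all 18 were positive with a median of 0.64 (0.54 without water 26), and 7 did not overlap, beside 2.86% of all genes. Between the stretch's water and the other water, with no treatment, the median was -1.01. Sag had 674, 566, 910.1, 537, 915, 579.8 and 549.5 with nicotinamide, against 382, 441 and 514 in water 26 to 28 and 184, 869 and 2403 in the other 22. Libraries 3 and 5 held the 2 highest nicotinamide values, and all 7 were above the 3 of the stretch. The difference was -0.21 ± 0.39 against all water (adjusted p 0.748) and 0.57 ± 0.18 in the stretch (adjusted p 0.158). Gngt1, the rod transducin gamma subunit, stood 0.99 ± 0.25 higher in the stretch (adjusted p 0.115).

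Müller glia, the support cells that span the retina, also differed in sign between the comparisons. Of 17 markers 8 fell and none rose against all water, with a median of -1.04, beside 5.34% lower over all genes. The 8 became 4 without nicotinamide library 4 and 15 without water 26. In the stretch none passed with limma and the median was 0.92, or 0.39 without water 26. The 3 water libraries of the stretch were lower than the other 22 with an adjusted p under 0.05 in 15 of the 17 (median -1.80), beside 2.91% of all genes. Without water 26 that count was 0 (median -1.48), and it was 11 without water 27 and 12 without water 28. Glul, which makes glutamine, had 567, 181, 692, 541, 897, 636 and 955 with nicotinamide, against 88.2, 559.9 and 457 in water 26 to 28 and 412, 1742 and 3832 in the other 22. Apoe, a lipid carrier, had 37.6, 26.7, 39.3, 33.2, 63.2, 39.7 and 77.02 with nicotinamide, against 6.399, 24.7 and 41.5 in water 26 to 28 and 48.5, 159 and 319 in the other 22. It was -1.44 against all water (adjusted p 0.0283) and 1.12 in the stretch (adjusted p 0.271), and the stretch's water stood -2.91 from the rest (adjusted p 0.000741). Leaving out nicotinamide library 1, 2, 3, 4 or 7 ended the call against all water (adjusted p 0.056 to 0.0703). Crym, which binds thyroid hormone, and the filament protein Vim fell against all water, by 1.19 and 1.01 (adjusted p 0.00545 and 0.00578). Their differences in the stretch are not given here.

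Among ganglion cell markers 5 of 17 rose against all water and none fell, beside 9.78% of all genes called higher. In the stretch 0 passed with limma. The median was 0.74 against all water, 0.245 in the stretch and 0.584 between the water sets. Ebf3, a transcription factor of ganglion and amacrine cells, had 17.2, 26.4, 51.2, 44.1, 14.3, 47.9 and 12.1 with nicotinamide, against 11.2, 41.2 and 19.1 in water 26 to 28 and 0.0871, 1.995 and 8.16 in the other 22. Water 26 to 28 themselves were above every other water library. Its difference was 2.89 ± 0.49 against all water (adjusted p 0.000277), 0.33 in the stretch (adjusted p 0.803) and 2.91 between the water sets (adjusted p 0.00191). Chrnb3, a nicotinic receptor subunit, had 85.2, 99.4, 149, 120.1, 122, 155 and 47.4 with nicotinamide, against 21.7, 102 and 47.5 in water 26 to 28 and 1.03, 12.4 and 96.7 in the other 22 (2.79 ± 0.61, adjusted p 0.00221; in the stretch 1.13, adjusted p 0.243). Thy1, the sort marker, was at 18, 38.02, 43.3, 42.6, 39.5, 84.1 and 16.8 with nicotinamide, against 11.8, 23.2 and 11.6 in water 26 to 28 and 7.61, 24.6 and 78.03 in the other 22, and did not pass in either (0.71 and 1.21, adjusted p 0.133 and 0.208). It too was highest in library 7 and lowest in library 8.

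**Figure D2:**
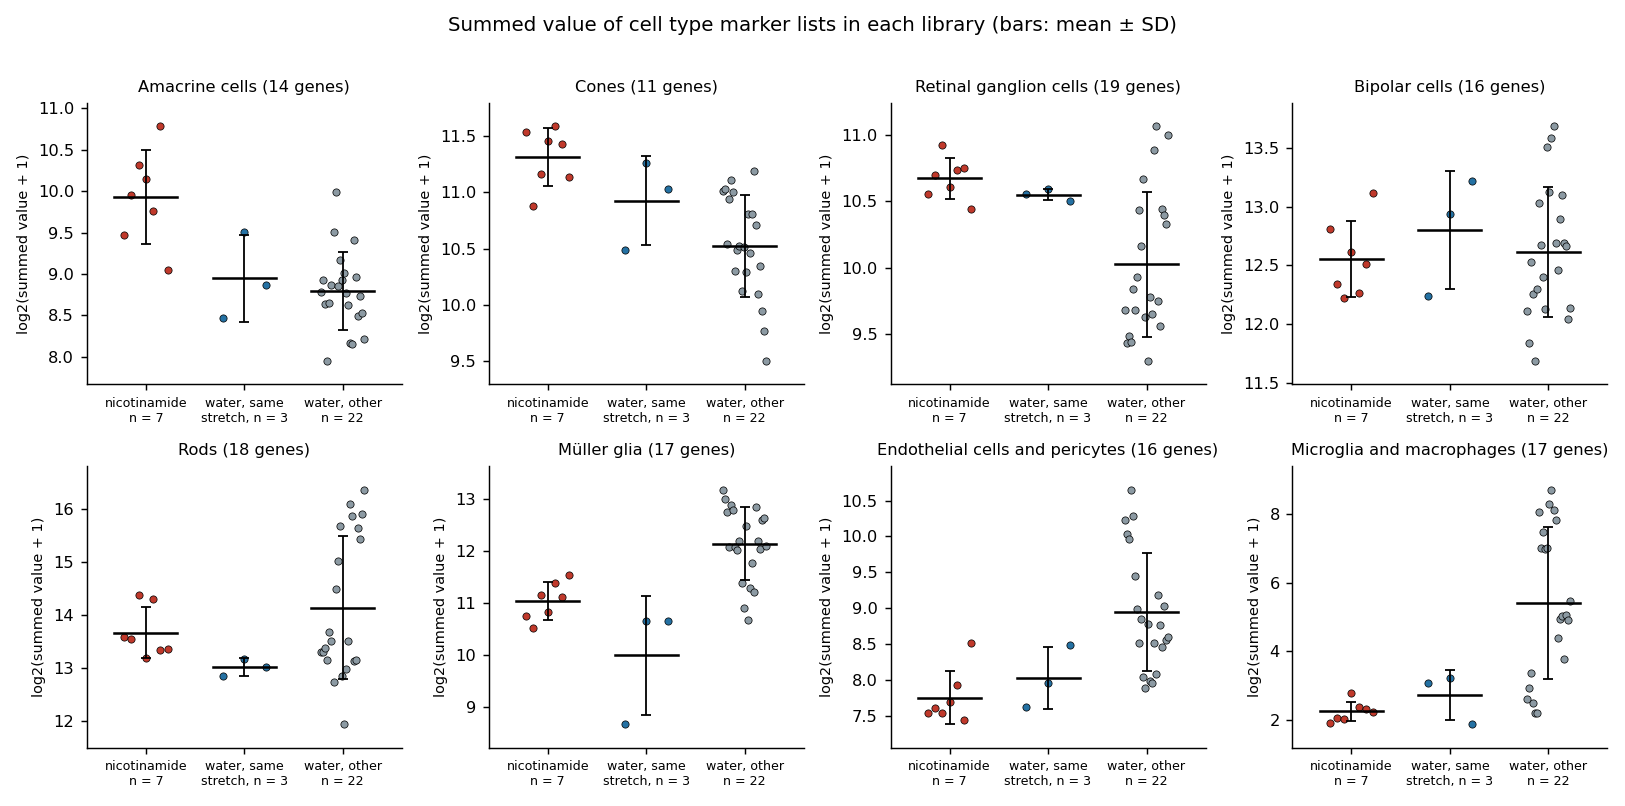
Summed deposited value of 8 cell type marker lists as log2(sum + 1), 1 dot per library, for nicotinamide, the 3 water libraries of the same stretch and the other 22 water libraries, with mean and SD. Amacrine sums run from 528 to 1764 with nicotinamide, Müller glia sums of the stretch include the low water 26 at 406, and microglia sums are 2.75 to 5.83 with nicotinamide against up to 422 in the other water libraries.

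Immune cell genes were among the largest decreases against all water. Ctss, a lysosomal protease of microglia, had 0.106, 0, 0, 0.236, 0.374, 0.159 and 0.758 with nicotinamide, against 0.194, 0.105 and 0.101 in water 26 to 28 and 0, 8.69 and 112 in the other 22. The nicotinamide values overlapped those of the stretch, and the difference was -2.66 ± 0.89 against all water (adjusted p 0.0389) and 0.10 in the stretch (adjusted p 0.866). Lyz2, a lysozyme of myeloid cells, had no read in any nicotinamide library, against 0, 0.211 and 0 in water 26 to 28 and 0, 5.71 and 31.5 in the other 22. Set at a floor of 3 reads per library, it was at least 33.6-fold lower with nicotinamide than the mean of all water. Laptm5 and Csf1r, both expressed in blood-derived cells and microglia, fell by 2.08 and 2.12 against all water (adjusted p 0.0323 and 0.0488), with 0.01 and -0.15 in the stretch (adjusted p 0.986 and 0.786). Leaving out any 1 nicotinamide library ended the call of Ctss (adjusted p 0.0525 without library 8, to 0.0756 without library 3) and of Csf1r (0.0602 without library 8, to 0.0933 without library 7), and leaving out any but library 2 ended that of Laptm5 (0.0523 to 0.0656).

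Of the 17 microglia markers 15 were tested, and 6 fell and none rose against all water, beside 5.34% of all genes. The 6 became 1 without nicotinamide library 1, 2, 3 or 7. In the stretch 0 passed with limma. Their summed level was 2.75 to 5.83 in nicotinamide libraries, 2.63 to 8.33 in water 26 to 28 and 3.57 to 422 in the other water libraries (median 31.9). The defining markers C1qa and Tmem119 were at 0 in every nicotinamide library and in water 26 to 28, which puts them at least 10.2-fold and 6.84-fold lower than the mean of all water. The list's median difference was -1.45 against all water, also with these 2 genes set at their bound, and -0.02 in the stretch (0.0 without water 26). The part of microglia in the genes described next was not tested.

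Part of the complement genes and of the interferon-response and class I antigen genes fell against all water, beside 5.34% lower over all genes. Of 19 complement genes 7 fell and 1 rose (Cd46, 0.79, adjusted p 0.0125), and the median was -1.04, or -0.80 with C1qa and Itgb2, at 0 in every nicotinamide library, set at their bound. The 7 became 3 without nicotinamide library 1, 3, 4, 5 or 7. In the stretch the median was -0.13 (0.0 without water 26, the highest of the 3 for 11 of the 19 genes), none passed with limma and 0 of 19 were free of overlap. C3, the central complement protein, had 0.953, 4.79, 0.522, 1.102, 0.841, 0.319 and 3.57 with nicotinamide, against 2.13, 2.64 and 6.68 in water 26 to 28 and 2.002, 5.61 and 31.6 in the other 22, with overlap in the stretch. Its difference was -1.58 ± 0.40 against all water (adjusted p 0.00663) and -0.92 in the stretch (adjusted p 0.34). Serping1, the C1 inhibitor, was low in 6 nicotinamide libraries and not in library 2: 3.28, 35.2, 3.28, 4.96, 3.18, 2.39 and 7.47 with nicotinamide, against 45.96, 7.38 and 11.7 in water 26 to 28 and 4.58, 11.9 and 35 in the other 22. Its difference was -1.06 ± 0.37 against all water (adjusted p 0.0462) and -1.4 in the stretch (adjusted p 0.361). The call against all water held in 15 of the 32 fits that leave out 1 library, with adjusted p up to 0.133 (without nicotinamide library 7), and not on reads scaled to library totals (adjusted p 0.0915).

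Of 26 interferon-response and class I genes 7 fell and none rose against all water, with 4 without nicotinamide library 3 or 7. The median was -0.547 against all water and -0.326 in the stretch. Without water 26, the highest of the 3 for 20 of the 26 genes, the stretch median was -0.119. In the stretch 2 of the 26 lay below the water without overlap, beside 1.78% of all genes. Ifitm3, an antiviral membrane protein, had 1.69, 7.78, 1.72, 4.64, 1.68, 1.91 and 7.26 with nicotinamide, against 19.6, 8.33 and 9.52 in water 26 to 28 and 6.99, 14.8 and 64.5 in the other 22. All 7 were below the 3 of the stretch, and 5 of the 7 were below every water library. The difference was -1.93 ± 0.32 against all water (adjusted p 0.000188) and -1.59 ± 0.44 in the stretch (adjusted p 0.132), while the stretch's water stood -0.39 from the rest (adjusted p 0.672). B2m, the light chain of class I molecules, had 12.2, 21.1, 9.63, 17.5, 13.4, 8.12 and 33.04 with nicotinamide, against 32.8, 23.4 and 25.2 in water 26 to 28 and 16.3, 46.5 and 79.5 in the other 22, with -1.4 ± 0.24 against all water (adjusted p 0.000277) and -0.81 in the stretch (adjusted p 0.267). H2-T23, a class I molecule, did not overlap in the stretch (-0.84, adjusted p 0.11). Arhgdib, a regulator of small GTPases in blood cells, had 0.212, 0.786, 0.149, 1.65, 0.187, 0.398 and 0.542 with nicotinamide, against 3.103, 4.01 and 1.82 in water 26 to 28 and 0.729, 3.68 and 20.3 in the other 22, without overlap in the stretch: -1.37 ± 0.28 (adjusted p 0.0738) as well as against all water (-1.66, adjusted p 0.00329). Cd97, an adhesion receptor of leukocytes and other cells, also did not overlap there (-1.32, adjusted p 0.119; against all water -1.89, adjusted p 0.000351). Summed microglia markers in the stretch overlapped between the groups, with a median of 3.68 in nicotinamide libraries and 7.37 in water 26 to 28. Their part in these genes was not tested.

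Immediate early genes, which neurons switch on within minutes of activity or handling, fell against all water in 7 of 20 and rose in none, beside 5.34% lower over all genes. In the stretch 3 of the 20, Fos, Egr1 and Nr4a1, lay below the water without overlap, beside 1.78% of all genes. Fos had 5.93, 17.8, 5.52, 17.9, 13.3, 5.34 and 13.97 with nicotinamide, against 18.8, 18.7 and 26.1 in water 26 to 28 and 14.1, 32.2 and 59.8 in the other 22. Its nicotinamide values lay below the stretch's water without overlap, with -1.41 ± 0.26 against all water (adjusted p 0.000446) and -0.97 ± 0.38 in the stretch (adjusted p 0.239). Egr1, a transcription factor induced with Fos, had 23.8, 21.1, 30.5, 52.7, 45.5, 30.3 and 32.7 with nicotinamide, against 55.1, 97.4 and 60.3 in water 26 to 28 and 27.99, 75.1 and 204 in the other 22, with -1.20 (adjusted p 0.00221) and -1.06 (adjusted p 0.111). Nr4a1, an orphan nuclear receptor, had 12.4, 15.6, 7.31, 19.8, 14.4, 12.8 and 18.96 with nicotinamide, against 27.1, 26.7 and 27.2 in water 26 to 28 and 7.58, 28.4 and 56.8 in the other 22. The 3 water values of the stretch were nearly equal and all above the nicotinamide ones, and the difference was -0.90 ± 0.24 against all water (adjusted p 0.0111) and -0.91 ± 0.23 in the stretch (adjusted p 0.108). Without nicotinamide library 3 the adjusted p of Nr4a1 against all water was 0.0506. For Fos, Egr1 and Nr4a1 the stretch's water differed from the rest by -0.50, -0.15 and 0.02 (adjusted p 0.431, 0.874 and 0.988). Fosb fell most (-1.83, adjusted p 0.00197) but had -0.56 in the stretch (adjusted p 0.519), and 0.08 without water 26. Over the 20 genes the median was -0.465 against all water and -0.19 in the stretch (-0.052 without water 26).

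Among the enzymes that make NAD, Nampt and Nmnat2 rose against all water. Of 13 tested genes of the NAD synthesis list 2 rose, 1 fell and 10 did not pass against all water. Over all genes 9.78% were higher and 5.34% lower. The list also holds kynurenine aminotransferases and NAD kinases, and the 1 that fell, Ccbl1, is such an aminotransferase. In the stretch 0 passed with limma (0 of 13 also with all 33 libraries of the stretch in 1 fit). Nampt, the rate-limiting salvage enzyme, had 89.5, 111, 87.5, 106, 90.1, 88.02 and 104 with nicotinamide, against 103, 103 and 119 in water 26 to 28 and 34.8, 60.1 and 112 in the other 22. The nicotinamide values overlapped those of the stretch's water. The log2 difference was 0.58 ± 0.18 against all water (adjusted p 0.0296) and -0.17 ± 0.11 in the stretch (adjusted p 0.462), and the stretch's water was itself 0.85 above the rest (adjusted p 0.0404). The adjusted p against all water was 0.0688 without nicotinamide library 2, 0.0661 without library 4 and 0.0549 without library 8. Nmnat2, the axonal NAD-synthesising enzyme, had 9.0, 11.7, 16.1, 15.04, 10.5, 18.2 and 6.93 with nicotinamide, against 6.01, 13.2 and 8.201 in water 26 to 28 and 0, 4.01 and 19.6 in the other 22. It rose by 1.37 ± 0.40 against all water (adjusted p 0.0177) and stood at 0.41 in the stretch (adjusted p 0.486). Without nicotinamide library 7 its adjusted p against all water was 0.0512.

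Nmnat1, the nuclear enzyme, was low throughout at 0.433 to 1.57 with nicotinamide and 0 to 3.53 with water (-0.07, adjusted p 0.86), and the mitochondrial Nmnat3 was at 0.558 to 3.92 and 0.151 to 4.64 (0.23, adjusted p 0.571). The riboside kinases Nmrk1 and Nmrk2 differed by -0.06 and -0.07 (adjusted p 0.84 and 0.854). For the nicotinic acid route, Naprt1 and Nadsyn1 differed by -0.45 and -0.22 (adjusted p 0.296 and 0.512). Ccbl1, a kynurenine aminotransferase, fell by 0.57 against all water (adjusted p 0.0338), with 0.01 in the stretch (adjusted p 0.985). Leaving out any nicotinamide library but 2 ended that call (adjusted p 0.0523 to 0.0881). The related Ccbl2 (-0.25) and the formamidase Afmid (0.08) did not pass (adjusted p 0.612 and 0.868). The NAD kinases Nadk and Nadkd1 differed by -0.48 and 0.04 (adjusted p 0.156 and 0.949).

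Of 29 tested genes that consume NAD or clear nicotinamide, Nudt12 rose, Parp14 fell and 27 did not pass against all water. Over all genes 9.78% were higher and 5.34% lower. In the stretch 0 of the 29 passed with limma. Parp14, a mono-ADP-ribosyltransferase, had 4.13, 6.28, 3.36, 2.91, 3.74, 3.27 and 5.2 with nicotinamide, against 3.103, 3.48 and 2.43 in water 26 to 28 and 3.21, 11.1 and 31.5 in the other 22. It was -1.07 ± 0.30 against all water (adjusted p 0.0129) and 0.33 in the stretch (adjusted p 0.488), and water 26 to 28 stood -1.59 from the other water (adjusted p 0.00994). Nudt12, an NADH hydrolase, had 5.19, 2.51, 4.55, 4.33, 4.86, 6.45 and 2.82 with nicotinamide, against 4.07, 2.004 and 6.88 in water 26 to 28 and 0.321, 1.504 and 5.798 in the other 22 (0.93, adjusted p 0.024; in the stretch 0.08, adjusted p 0.92). The call of Nudt12 ended without nicotinamide library 1, 3, 5 or 7 (adjusted p 0.0513 to 0.0704). Sirt1, the nuclear deacetylase that uses NAD, had 41.1, 33.7, 34.4, 32.9, 36.7, 30.8 and 35.2 with nicotinamide, against 45.4, 30.3 and 32.9 in water 26 to 28 and 18.2, 29.8 and 46.6 in the other 22, and differed by 0.19 ± 0.14 (adjusted p 0.352) and, in the stretch, -0.03 ± 0.13 (adjusted p 0.935). Parp1, the main DNA-damage user of NAD, differed by -0.01 ± 0.13 (adjusted p 0.983) and -0.22 ± 0.14 (adjusted p 0.449). Sarm1, the axonal NAD hydrolase, had 91.3, 71.9, 74.3, 91.5, 91.2, 93.8 and 116 with nicotinamide, against 78.5, 128 and 132 in water 26 to 28 and 55.05, 88.04 and 156 in the other 22, and differed by -0.04 (adjusted p 0.863) and, in the stretch, -0.30 ± 0.17 (adjusted p 0.395). Of the other sirtuins, Sirt2 had the smallest adjusted p against all water (0.144) and Sirt6 the largest (0.797). In the methionine cycle, which supplies the methyl groups used to clear nicotinamide, Mat2a alone rose of 21 genes against all water (0.49, adjusted p 0.00665) and stood at 0.02 in the stretch (adjusted p 0.962).

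**Figure D3:**
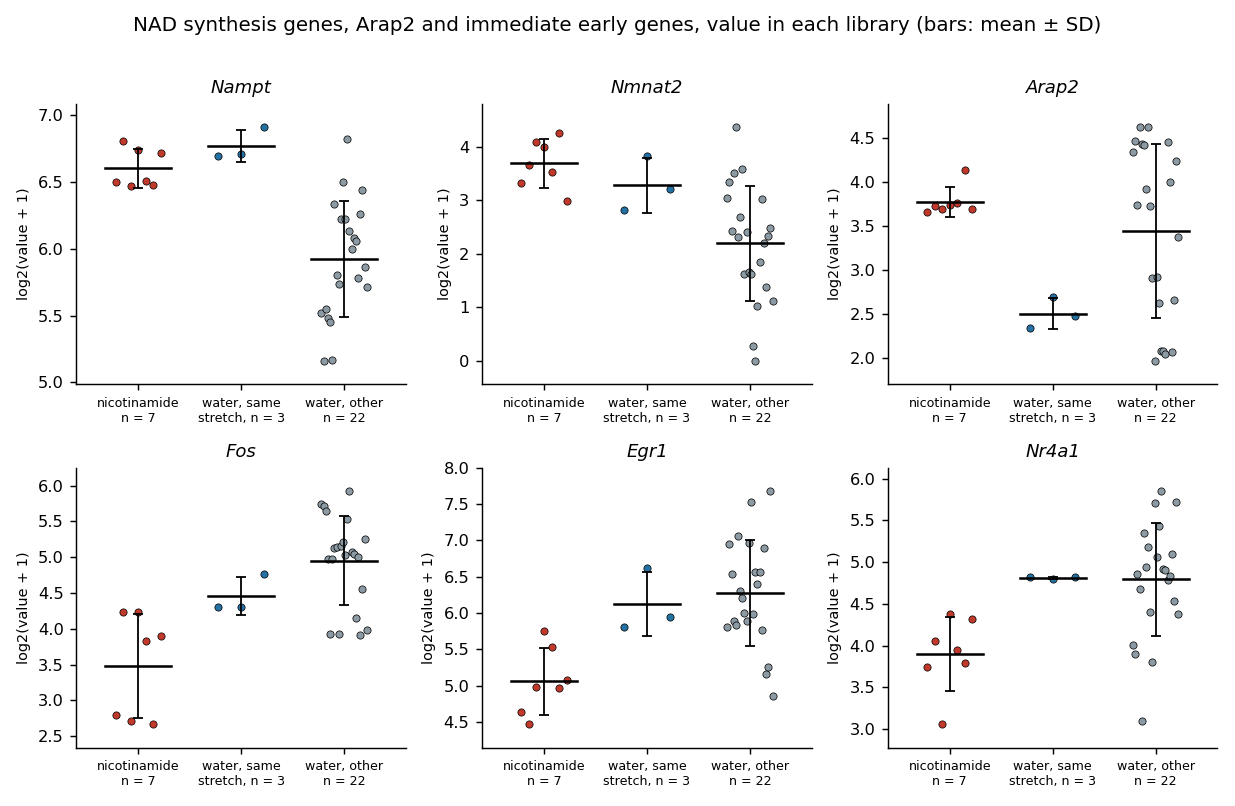
Deposited values of Nampt, Nmnat2, Arap2, Fos, Egr1 and Nr4a1 as log2(value + 1), 1 dot per library, for nicotinamide, the 3 water libraries of the same stretch and the other 22 water libraries, with mean and SD. Nampt of nicotinamide (87.5 to 111) overlaps water 26 to 28 (103 to 119) and lies above the median of the other water (60.1), Arap2 of nicotinamide lies above the 3 but inside the other 22, and Fos, Egr1 and Nr4a1 of nicotinamide lie below the 3.

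Hmgcs1, Insig1 and Fdft1 of the sterol pathway rose against all water, and most genes of the pathway were higher inside the stretch. Of 28 cholesterol and fatty acid synthesis genes, 7 rose and 3 fell against all water, beside 9.78% higher and 5.34% lower over all genes. In the stretch 7 were higher in every nicotinamide library than in the 3 water libraries, beside 2.86% of all genes. The 7 that rose became 3 without nicotinamide library 3 or 7. In the stretch 23 of 28 differences were positive, beside 7183 of 13925 over all genes, and the count was 23 without water 26 and 24 on reads scaled to library totals. The median was 0.27 against all water, 0.45 in the stretch (0.385 without water 26) and -0.29 between the stretch's water and the other water. With all 33 libraries of the stretch in 1 fit, 4 genes of the list were called, among them Hmgcs1, Fdft1 and Insig1, and without water 26 none was.

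Hmgcs1 makes HMG-CoA at the start of the sterol pathway, and Insig1 senses sterols and holds the SREBP activators back. Both are shown with the sequence around their start sites. Hmgcs1 and Insig1 are 2 of the 7 list genes for which all 7 nicotinamide libraries exceeded the 3 water libraries of the stretch. SREBP factors act through a sterol regulatory element, searched here as TCACNCCAC, usually next to a CCAAT box. The 2 sequences are from RefSeq (GRCm38.p6, plus strand), from 250 bases before to 50 after the start, with matches to either motif on either strand in capitals. Hmgcs1 lies on chromosome 13 (chr13:119690101-119690400) and Insig1 on chromosome 5 (chr5:28071162-28071461).
Hmgcs1: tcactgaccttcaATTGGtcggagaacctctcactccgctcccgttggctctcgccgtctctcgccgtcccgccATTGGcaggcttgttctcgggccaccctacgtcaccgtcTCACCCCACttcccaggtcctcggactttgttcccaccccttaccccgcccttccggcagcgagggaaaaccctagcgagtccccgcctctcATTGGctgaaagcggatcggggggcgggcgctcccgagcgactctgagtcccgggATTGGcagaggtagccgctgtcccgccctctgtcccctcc
Insig1: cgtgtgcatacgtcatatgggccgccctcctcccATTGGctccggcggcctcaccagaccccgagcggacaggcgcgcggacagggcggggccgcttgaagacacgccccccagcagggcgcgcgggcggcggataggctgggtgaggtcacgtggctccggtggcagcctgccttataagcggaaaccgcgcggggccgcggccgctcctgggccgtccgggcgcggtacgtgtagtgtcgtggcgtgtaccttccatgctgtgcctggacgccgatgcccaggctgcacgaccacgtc
The Hmgcs1 promoter held a match to TCACNCCAC 137 bases before the start and 4 CCAAT matches. The Insig1 promoter held 0 matches to TCACNCCAC and 1 CCAAT match. TCACNCCAC was found in 408 of 32851 promoters of this length (1.24%) and CCAAT in 12289 (37.4%). Of the 28 list genes 20 had a promoter entry, and Hmgcs1 was the 1 of the 20 with a match to TCACNCCAC. Sqle, Scd2 and Fdft1 had no entry and were not searched. Sc4mol, entered as Msmo1, and Fasn, described next among the genes without overlap in the stretch, held 0 matches to it. A match describes letters in the window and not a site in use. Only these exact letters were searched, so 0 matches do not show that a promoter lacks a sterol element.

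Hmgcs1 had 49.3, 73.8, 82.2, 58.6, 62.95, 98.1 and 46.3 with nicotinamide, against 30.2, 40.9 and 38.3 in water 26 to 28 and 19.6, 36.9 and 57.6 in the other 22. All 7 exceeded the 3 of the stretch, and 5 of the 7 exceeded every water library. Its difference was 0.81 ± 0.16 against all water (adjusted p 0.000866), 0.83 ± 0.20 in the stretch (adjusted p 0.106, or 0.0364 with all 33 libraries) and -0.02 between the water sets (adjusted p 0.976). Insig1 had 29.01, 48.5, 60.4, 37.9, 41.5, 62.5 and 33.1 with nicotinamide, against 11.8, 23.9 and 23.8 in water 26 to 28 and 8.52, 27.9 and 49.9 in the other 22, with 0.84 ± 0.27 against all water (adjusted p 0.0318) and 1.15 ± 0.26 in the stretch (adjusted p 0.0996, or 0.0327 with all 33). On reads scaled to library totals, Insig1 had an adjusted p of 0.0549 against all water. Its call also ended without nicotinamide library 2, 3, 4, 5 or 7 (adjusted p 0.0504 to 0.0901). Fdft1, squalene synthase, had 39.4, 44.1, 51.1, 42.7, 39.7, 57.3 and 24.5 with nicotinamide, against 18.03, 27.6 and 24.5 in water 26 to 28 and 8.76, 25.2 and 49.04 in the other 22. Library 8 lay among the stretch's water and the other 6 above it. The difference was 0.72 ± 0.19 (adjusted p 0.00903) and 0.82 ± 0.21 in the stretch (adjusted p 0.111, or 0.0327 with all 33).

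Sqle, squalene epoxidase, had 20.1, 28.6, 35.4, 25.6, 24.8, 38.1 and 21.4 with nicotinamide, against 17.3, 19.9 and 18.7 in water 26 to 28 and 12.2, 23.5 and 50.4 in the other 22. It did not overlap in the stretch but passed in neither comparison (0.27, adjusted p 0.373, and 0.52, adjusted p 0.19). Sc4mol (0.81), Fasn (0.60) and Scd2 (0.77) were also without overlap in the stretch, with adjusted p 0.0987, 0.123 and 0.131. For Sc4mol, Fasn and Scd2 the difference against all water was negative (-0.15, -0.39 and -0.26) and did not pass (adjusted p 0.723, 0.167 and 0.451). Elovl6, a fatty acid elongase, rose against all water (0.86 ± 0.21, adjusted p 0.00465) with 0.08 in the stretch (adjusted p 0.826). The 3 that fell against all water were Acaca (-0.42, adjusted p 0.0166), Dhcr7 (-0.50, adjusted p 0.0374) and Srebf1 (-0.68, adjusted p 0.0378). Leaving out any 1 nicotinamide library ended the call of Dhcr7 (adjusted p 0.0511 to 0.0996), and any but library 8 that of Srebf1 (0.0582 to 0.0842). Nicotinamide library 7 was the highest of the 7 for 16 of the 28 genes, the library that was also highest in amacrine markers. Summed amacrine markers are given above, and their part in the sterol genes was not tested.

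**Figure D4:**
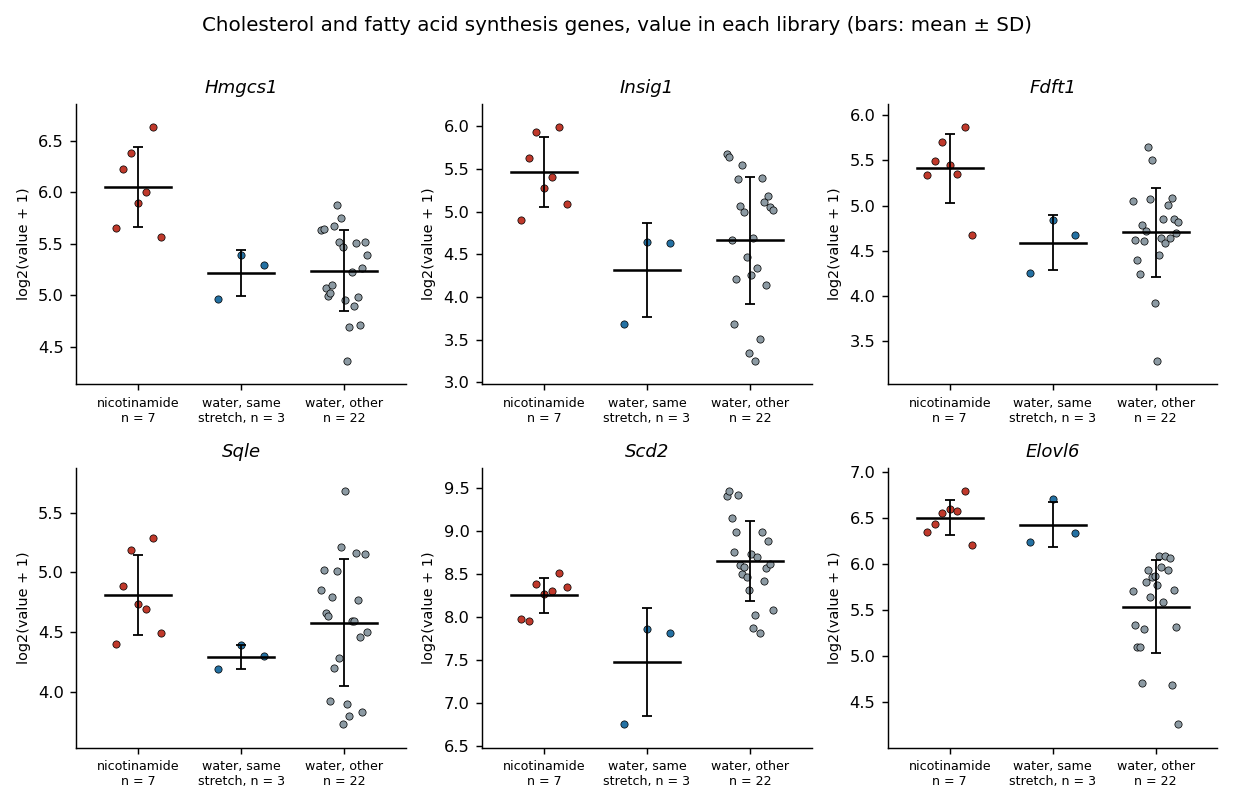
Deposited values of 6 cholesterol and fatty acid synthesis genes as log2(value + 1), 1 dot per library, for nicotinamide, the 3 water libraries of the same stretch and the other 22 water libraries, with mean and SD. The nicotinamide dots lie above all 3 water dots of the stretch for Hmgcs1, Insig1, Sqle and Scd2, and for Elovl6 they lie at the height of the stretch's water.

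The 10 smallest p-values of the stretch comparison named a mixed set of genes. Arap2, a regulator of small GTPases (chr5:62602445-62766192, GRCm38.p6), had 11.6, 12.3, 11.9, 12.4, 12.6, 16.6 and 11.9 with nicotinamide, against 4.07, 5.49 and 4.56 in water 26 to 28 and 2.91, 12.3 and 23.7 in the other 22. All 7 were above the 3 of the stretch and inside the range of the other water. The log2 difference was 1.27 ± 0.16 in the stretch (adjusted p 0.014), 0.44 ± 0.35 against all water (adjusted p 0.409) and -0.94 between the water sets (adjusted p 0.326). In the fit of all 33 libraries its adjusted p was 0.0125, and 0.235 without water 26. In the stretch comparison it was 0.0583 without nicotinamide library 4, 0.0553 without library 5 and 0.0803 without water 28.

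Rcan2, a calcineurin regulator, had 17.3, 24.4, 27.5, 32.5, 30.8, 34.7 and 15.1 with nicotinamide, against 3.296, 7.17 and 7.796 in water 26 to 28 and 1.62, 7.598 and 18.7 in the other 22. Every nicotinamide value was above the 3 of the stretch, and 5 of 7 were above every water library. It rose against all water (1.67 ± 0.29, adjusted p 0.000286) and differed by 1.95 ± 0.28 in the stretch (adjusted p 0.0624, or 0.0107 with all 33). Tmem191c had 11.01, 14.4, 17.4, 15.7, 12.4, 17.5 and 11.7 with nicotinamide, against 6.399, 7.07 and 5.06 in water 26 to 28 and 0.929, 3.74 and 9.19 in the other 22, above every water library (1.63, adjusted p 0.000277; in the stretch 1.08, adjusted p 0.0624). Stxbp6, which binds the vesicle fusion machinery, rose against all water (1.41, adjusted p 0.00142) and differed by 1.80 in the stretch (adjusted p 0.0624). Mgp, an inhibitor of calcification made by vessel cells, had 1.69, 3.93, 1.49, 2.83, 2.802, 1.91 and 5.85 with nicotinamide, against 16.7, 7.49 and 10.7 in water 26 to 28 and 0.774, 9.12 and 77.95 in the other 22, below the stretch's water without overlap. It fell against all water (-1.58, adjusted p 0.0102) and differed by -1.70 in the stretch (adjusted p 0.0624).

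For the others of the 10 the water of the stretch stood apart from the other water, or the full comparison did not pass. Dgkg, a diacylglycerol kinase, had 23.3, 19.7, 20.1, 22.9, 17.5, 23.3 and 34.99 with nicotinamide, against 51.8, 44.5 and 51.7 in water 26 to 28 and 8.49, 20.4 and 36.7 in the other 22. The nicotinamide values lay inside the other water, and the stretch's water lay above all of it. The difference was -1.09 in the stretch (adjusted p 0.0624), -0.04 against all water (adjusted p 0.929) and 1.19 between the water sets (adjusted p 0.0147). Fads2, a fatty acid desaturase, had 1.32 in the stretch (adjusted p 0.0624), -0.66 against all water (adjusted p 0.218) and -2.25 between the water sets (adjusted p 0.00197). Lrrc55, a potassium channel subunit, had -1.27 in the stretch (adjusted p 0.0624) and -0.69 against all water (adjusted p 0.0703). The guidance molecule Sema6d (-1.03 in the stretch, -0.33 against all water) and the receptor Gpr153 (1.24 and -0.36) did not pass in either (adjusted p 0.0624, 0.462, 0.0624 and 0.588).

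In 7 genes (0.0503% of those tested) every nicotinamide library exceeded all 25 water libraries, and in 0 genes did every one lie below. Slc16a7, a monocarboxylate transporter that takes up pyruvate and lactate, had 8.15, 9.82, 6.94, 6.38, 7.85, 7.57 and 7.8 with nicotinamide, against 4.85, 4.11 and 2.33 in water 26 to 28 and 0, 1.399 and 5.78 in the other 22 (1.68 ± 0.32, adjusted p 0.000663; in the stretch 0.91, adjusted p 0.0816). Zdbf2 had 18, 21.3, 26.6, 31.02, 17.7, 24.4 and 17.01 with nicotinamide, against 6.98, 11.7 and 12.8 in water 26 to 28 and 1.47, 8.497 and 15.8 in the other 22 (1.39, adjusted p 0.001; in the stretch 1.03, adjusted p 0.0738). The others were Tmem191c, Grhl3 (1.24), Egf, an epidermal growth factor (1.08), Cul4b, a ubiquitin ligase scaffold (0.78), and Fam13b (0.65), with adjusted p 0.000233, 0.00256, 0.00159 and 0.000777 against all water. In the stretch the last 4 differed by 0.90, 0.58, 0.15 and 0.31 (adjusted p 0.0949, 0.203, 0.46 and 0.154). Apart from Tmem191c, these 7 were chosen after their values were seen.

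Respiratory chain and ribosomal protein genes were lower against all water in part of each list. Of 76 nuclear-encoded respiratory chain genes 12 fell and none rose against all water (median -0.279), beside 5.34% lower over all genes, and the 12 became 3 without nicotinamide library 5. In the stretch 0 passed with limma, and the median was -0.074, or 0.006 without water 26, with 24 and 42 of the 76 positive. The stretch's water stood at a median of -0.282 from the other water. Cox4i1, a subunit of cytochrome oxidase, had 47.1, 45.1, 42.7, 54.1, 42.8, 54.7 and 59.6 with nicotinamide, against 58.9, 42.9 and 55.3 in water 26 to 28 and 36.6, 103 and 208 in the other 22 (-0.75, adjusted p 0.0383; in the stretch -0.08, adjusted p 0.816). Leaving out any nicotinamide library but 8 ended its call (adjusted p 0.0614 to 0.0834). None of the 13 respiratory subunits encoded in mitochondrial DNA passed in either comparison with limma (median 0.338 and -0.111, the second -0.001 without water 26). Of 75 cytosolic ribosomal protein genes 30 fell and none rose against all water (median -0.569), and 19 fell without nicotinamide library 3. The median was -0.033 in the stretch, with 28 of 75 positive, and 0.083 without water 26, with 55 positive. Between the water sets it was -0.694. Rps19 had 9.11, 10.2, 7.91, 10.9, 9.15, 10.04 and 13.1 with nicotinamide, against 13.2, 10.7 and 11.04 in water 26 to 28 and 15.5, 26.6 and 50.5 in the other 22, so the nicotinamide and stretch values overlapped and both lay below the other water (-1.21, adjusted p 0.000618; in the stretch -0.20, adjusted p 0.588).

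The counts against all water in this paragraph stand beside 9.78% higher and 5.34% lower over all genes. Of 20 hypoxia-induced genes 4 rose and 1 fell against all water, with a median of 0.057 in the stretch and 0 passing there with limma. Higd1a, a mitochondrial protein, had 91.3, 131, 103, 115, 109, 119.9 and 88.3 with nicotinamide, against 115, 82.6 and 109.9 in water 26 to 28 and 11.3, 40.7 and 92.9 in the other 22 (1.38, adjusted p 0.00243; in the stretch 0.08, adjusted p 0.826; between the water sets 1.48, adjusted p 0.0252). Of 31 synaptic vesicle genes 9 rose and 1 fell against all water (median 0.396). In the stretch 0 passed with limma, 15 of the 31 were positive and the median was -0.028. Between the water sets the median was 0.343. Those that rose included Cplx2, a regulator of vesicle fusion (2.06, adjusted p 0.000618; in the stretch 1.85, adjusted p 0.131). Another was Slc32a1, the GABA vesicle transporter that the amacrine list also holds (2.56, adjusted p 0.00127; in the stretch 1.13, adjusted p 0.303). Of 34 matrix and integrin genes 11 fell and 3 rose against all water. Sparc, a matrix protein that glia and vessel cells secrete, differed by -1.45 (adjusted p 0.00405), with 0.34 in the stretch (adjusted p 0.685) and -2.03 between the water sets (adjusted p 0.00171). Tnc, a matrix glycoprotein, rose by 2.46 (adjusted p 0.00156) and had 1.91 in the stretch (adjusted p 0.112).

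Among markers of vessel cells, 2 of 16 lay below the water of the stretch without overlap, beside 1.78% of all genes. Of the 16 endothelial and pericyte genes 3 fell and none rose against all water (median -0.742), beside 5.34% lower over all genes. The 3 became 0 without nicotinamide library 1, 2, 3, 4, 5 or 7. In the stretch 0 passed with limma (median -0.541, or -0.6 without water 26). The pericyte channel subunits Abcc9 and Kcnj8 were lower in every nicotinamide library than in the 3 of the stretch. Abcc9 had 22.6, 22.2, 16.2, 29.1, 28.4, 16.2 and 53.6 with nicotinamide, against 92.3, 65.5 and 73.2 in water 26 to 28 and 11.7, 37.7 and 235 in the other 22 (-1.58 ± 0.30 in the stretch, adjusted p 0.0738; -0.73 against all water, adjusted p 0.17). Kcnj8 had 1.8, 3.61, 1.34, 3.46, 1.87, 2.31 and 3.36 with nicotinamide, against 8.73, 5.697 and 10.3 in water 26 to 28 and 0.0746, 4.68 and 29.1 in the other 22 (-1.4 ± 0.26, adjusted p 0.0624; -0.61, adjusted p 0.428). Summed vessel markers ran from 173 to 363.5 in nicotinamide libraries, 196 to 359 in water 26 to 28 and 235 to 1607 in the other water.

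The remaining lists had 0 calls in the stretch with limma, and their counts against all water stand beside 9.78% higher and 5.34% lower over all genes. Against all water, glycolysis and the citric acid cycle each had 1 higher and 1 lower of 23, mitochondrial dynamics 2 and 1 of 30, antioxidant enzymes 2 and 5 of 33, p53 targets 2 and 2 of 26, and the Bcl2 family 1 and 1 of 24. The unfolded protein response had 0 higher and 5 lower of 25, heat shock proteins 1 and 4 of 17, autophagy and lysosome 1 and 4 of 28, and cytokine signalling 1 and 4 of 26. The lower counts became 0 for antioxidant enzymes without nicotinamide library 4, and 1 each for the unfolded protein response and heat shock proteins without library 7. Axon injury genes had 5 and 2 of 25, the circadian clock 4 and 0 of 22, and bipolar cells 2 and 0 of 16. Without library 7 the 5 axon injury genes became 1. Astrocyte markers had 0 of 7 in either direction, pigment epithelium 0 higher and 1 lower of 5, and blood cells 0 of 2, and no lens gene was tested. In the fit of all 33 libraries of the stretch, the glycolytic Ldhb (0.87, adjusted p 0.0311) and the cytokine mediator Stat3 (-1.24, adjusted p 0.0365) were called, and neither without water 26. Stat3 had 47.97, 207, 47.7, 56.3, 52.7, 40.1 and 62.8 with nicotinamide, against 223, 89.1 and 163 in water 26 to 28 and 29.1, 63.5 and 202 in the other 22, with library 2 among the water values.

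**Figure D5:**
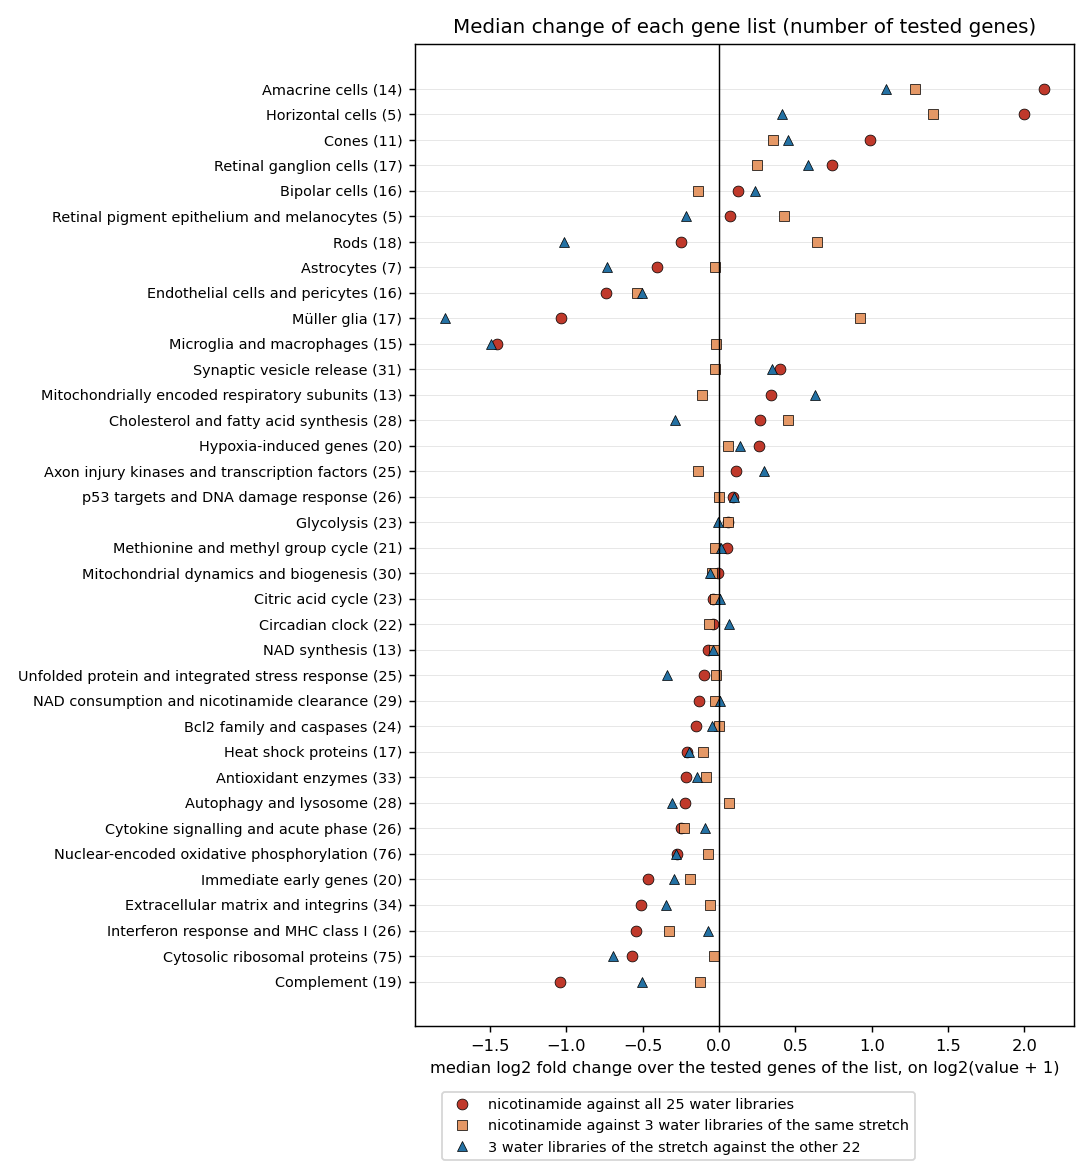
Median log2 difference of each gene list with at least 5 tested genes in nicotinamide against all 25 water libraries (circles), nicotinamide against the 3 water libraries of the same stretch (squares) and those 3 against the other 22 (triangles). Amacrine genes lie to the right in all 3 (2.13, 1.28 and 1.09), while Müller glia lie at -1.04, 0.92 and -1.80 and cholesterol synthesis at 0.27, 0.45 and -0.29.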

How the data were processed

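Retinal cells of DBA/2J and D2-Gpnmb+ mice were sorted and their total RNA sequenced. Per the submitters' processing notes the authors used TopHat2 2.0.7, Bowtie2 2.0.6, HTSeq and the mm10 build; strandedness is not given in the sources used here. The deposited values are a normalized signal per gene, scaled for library size; dividing by the step of 1 read gave whole reads for 100% of values (tolerance 0.05). Of 15171 rows, 22 with date-like names were dropped. Columns name a group, not a single sample. The 7 nicotinamide and 25 water columns were compared on log2(value + 1) with limma 3.58.1 (trend and robust), keeping the 13925 genes that reached 1 in at least 7 of 32 libraries, with Benjamini-Hochberg adjustment and a threshold of 0.05; the same genes were used within the stretch and between the water sets. Fold changes are on that scale, which understates changes of low genes. The floor of 3 reads covers counting error only, and ± values are standard errors of the fits over libraries. In no pair of libraries did counts agree within sampling noise (lowest chi-squared per gene 6.74). Alternatives used edgeR 4.0.16 and DESeq2 1.42.0 on the recovered reads, where edgeR called 2275 genes, and other pseudocounts, filters, scalings and sets of libraries. The fits were tested on simulated data. Figures were drawn with matplotlib 3.10.9 and gene positions come from RefSeq (GRCm38.p6).

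The libraries compared, the 39 gene lists (929 genes, 12 of them found under older names) and the division of columns into stretches were chosen with earlier results of these data known. Genes named are the 10 largest increases and 10 largest decreases with an adjusted p under 0.05 against all water, the 10 smallest p-values within the stretch, up to 4 members per list with the smallest p against all water, and all NAD genes. The first 20 and the 10 had to average 5 or more in whichever group was higher. Other genes named were chosen after their values were seen. Some genes that these rules name are not reported here.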

Additional observations from a re-analysis of the deposited data

Results flagged for a closer look

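In 6 of 30 named genes checked, 1 nicotinamide library stood apart from the other 6 by Dixon's test on the deposited values. That test flags about 1 group in 20 by chance where values are normally distributed. These values were not on the log2 scale of the fits, so the rate may be higher here. Library 8 was the highest for Csf1r (0.975, next 0.394), Dgkg (35.0, next 23.3) and Lrrc55 (29.0, next 17.2). Library 2 was the highest for Fosb (3.61, next 1.34), library 4 for Arhgdib (1.65, next 0.786) and library 7 for Arap2 (16.6, next 12.6). For Dgkg, Lrrc55 and Arhgdib the value that stood apart was the one nearest to the water of the stretch, and for Arap2 the one farthest from it.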

How the results depend on the processing

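Against all water, the 2105 calls became 1299 to 1847 without 1 nicotinamide library and 1920 to 2538 without 1 water library. Against only the water of the first stretch they were 6953, of the second 3316, and of both, an alternative chosen after seeing the data, 3375. With column stretch as a term they were 0. The share of calls that were higher was 64.7%, against 78.4% scaled to total reads, 45.3% with edgeR and 40.4% with DESeq2. Other pseudocounts, filters, TMM factors, all 5 groups in 1 fit and limma without trend kept the count within 1.5 times.

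In the stretch, the single call became 466 with DESeq2, 110 with all groups of the stretch in 1 fit and 39 with edgeR in that fit (chosen after seeing the data). With the level of Müller glia, rod, bipolar or amacrine markers as a term it was 677, 47, 307 and 149. It was 0 to 178 without 1 nicotinamide library (0 without 4 or 5, 94 without 2, 178 without 8) and 0 to 391 without 1 water library (2 without 26, 391 without 27, 0 without 28). The 110 became 0, 393 and 46 without water 26, 27 and 28, chosen after seeing the data. The 753 calls between the water sets became 400 scaled to total reads, 1290 with DESeq2, and 6 to 318 without 1 library of the stretch (6 without 26, 235 without 27, 318 without 28).

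With column stretch as a term, 69 of 191 results on named genes against all water stayed on their side of the threshold, 94 lost the call and 28 turned in sign. Those 28 were Ctss 0.10, Laptm5 0.01, Fxyd1 0.69, Cyr61 0.23, Nampt -0.17, Ccbl1 0.01, Parp14 0.33, Uqcrc1 0.10, Pdk1 -0.18, Slc2a1 0.23, Dlat -0.01, Gstm1 0.23, Gpx8 0.32, Ero1l -0.02, Hspa4 -0.05, Cryab 0.27, Klf7 -0.05, Clu 0.31, Tnfrsf1a 0.19, Npc2 0.27, Atg3 -0.06, Wipi1 0.43, Sparc 0.34, Dbi 0.59, Onecut2 -0.56, Flt1 0.64, Rgr 0.57 and Rn45s 0.02. Against the first stretch's water alone, Ctss was 0.11, Csf1r 0.05, Gadd45g 0.09 and mt-Rnr2 0.74. Of the 32 fits that leave out 1 library, Csf1r passed in 10, H2-T23 in 11, Serping1 in 15 and Ctss in 25. Scaled to total reads, Acaca, Apoe, Ccbl1, Csf1r, Ctss, Dhcr7, H2-T23, Insig1, Serping1 and Srebf1 no longer passed (adjusted p 0.0538 for Ctss to 0.179 for Dhcr7). The cause of these changes was not tested.

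No paired analysis was possible because the columns carry library numbers that the labels do not tie across groups. Depth limits low genes: 1 read was worth 0.0746 to 0.108 in nicotinamide libraries, beside 0 to 1.73 for Pou4f1.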

Other observations

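Nicotinamide library 2 was the highest of the 7 for 14 of 26 interferon-response and class I genes, 15 of 26 cytokine signalling genes and 9 of 19 complement genes. Water 26 was the highest of its 3 for 20, 17 and 11 of the same lists. Of single genes, chosen here after their values were seen, Serping1 was at 35.2 and 46.0, Stat3 at 207 and 223, and Onecut2 at 66.0 and 63.0 in library 2 and water 26.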
